A study of Mus musculus with 16 samples.

Results

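A set of 7 genes of the aryl hydrocarbon receptor (AhR) pathway were followed in nuclear RNA of the mouse colon, chosen by name and matched to the count table by GRCm38 symbol, 7 of the 51912 genes in the table. They are the receptor gene Ahr, the partner genes Arnt and Arnt2, and 4 genes known to be switched on by the receptor, namely Ahrr, Tiparp, Cyp1a1 and Cyp1b1. All animals were C57BL/6 mice held under specific pathogen-free conditions, and all carried the vector AAV9-CaMKII-EGFPKASH, given intravenously 5 weeks before nuclei were taken from the longitudinal muscle and attached myenteric plexus. The first group, neuronal agonist, holds EGFP+ nuclei of mice given 3-methylcholanthrene, a polycyclic aromatic hydrocarbon that activates AhR, into the peritoneum 14 hours before isolation. Neuronal control holds EGFP+ nuclei of mice given corn oil at that time. Non-neuronal agonist and non-neuronal control hold the EGFP- nuclei under 3-methylcholanthrene and under corn oil. Each group has 4 libraries, 16 libraries in all. The sources used here give no dose, age or sex, and are silent on whether a group's libraries came from separate mice, so p-values reflect only the spread between these libraries. The tag is driven by the CaMKII promoter, so a neuron without the vector or without promoter activity was sorted with the EGFP- nuclei.

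AhR waits in the cytoplasm in a complex with HSP90 and other chaperones, moves to the nucleus when a ligand binds, and pairs there with ARNT to bind a short DNA element. Its targets include the monooxygenases CYP1A1 and CYP1B1, which oxidise aromatic hydrocarbons, and a pair of brakes: AHRR, a repressor that competes for ARNT, and TIPARP, an ADP-ribosyltransferase that modifies AhR and lowers its activity. In the gut the pathway is known from epithelium and immune cells, where dietary and microbial ligands reach it, and from enteric neurons.

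The promoter windows of these genes are shown because the DNA element that AhR and ARNT bind has the core GCGTG. It is set in capitals, also where it lies on the other strand and reads CACGC. RefSeq windows of 250 bases before to 50 bases after the start, on GRCm38.p6, were found for 6 of the 7 genes, and Ahr had no entry. They are printed on the strand of the gene, for Cyp1a1 at chr9:57697363-57697662 (plus strand), Cyp1b1 at chr17:79715012-79715311 (minus), Ahrr at chr13:74292282-74292581 (minus), Tiparp at chr3:65528197-65528496 (plus), Arnt at chr3:95434140-95434439 (plus) and Arnt2 at chr7:84409989-84410288 (minus).
Cyp1a1: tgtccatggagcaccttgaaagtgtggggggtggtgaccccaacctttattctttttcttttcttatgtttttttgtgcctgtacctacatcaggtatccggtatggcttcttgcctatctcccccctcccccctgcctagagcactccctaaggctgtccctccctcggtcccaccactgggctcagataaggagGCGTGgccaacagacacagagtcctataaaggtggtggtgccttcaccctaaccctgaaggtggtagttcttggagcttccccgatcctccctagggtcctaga
Cyp1b1: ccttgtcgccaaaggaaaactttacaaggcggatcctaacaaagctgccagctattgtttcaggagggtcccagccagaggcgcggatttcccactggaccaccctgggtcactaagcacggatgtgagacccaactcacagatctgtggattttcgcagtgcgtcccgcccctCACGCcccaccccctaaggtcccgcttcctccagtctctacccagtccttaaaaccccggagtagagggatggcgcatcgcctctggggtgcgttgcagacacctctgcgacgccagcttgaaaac
Ahrr: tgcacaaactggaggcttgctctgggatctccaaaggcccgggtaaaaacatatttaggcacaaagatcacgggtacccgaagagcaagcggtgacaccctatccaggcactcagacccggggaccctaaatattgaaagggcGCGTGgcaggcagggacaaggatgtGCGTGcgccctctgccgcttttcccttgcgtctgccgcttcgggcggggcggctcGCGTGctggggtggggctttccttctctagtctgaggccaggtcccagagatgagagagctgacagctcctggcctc
Tiparp: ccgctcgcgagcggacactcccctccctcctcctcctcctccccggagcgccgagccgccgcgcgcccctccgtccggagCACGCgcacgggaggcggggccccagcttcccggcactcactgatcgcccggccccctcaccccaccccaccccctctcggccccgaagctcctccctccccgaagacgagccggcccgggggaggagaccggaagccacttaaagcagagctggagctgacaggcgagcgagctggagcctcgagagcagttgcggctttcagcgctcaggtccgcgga
Arnt: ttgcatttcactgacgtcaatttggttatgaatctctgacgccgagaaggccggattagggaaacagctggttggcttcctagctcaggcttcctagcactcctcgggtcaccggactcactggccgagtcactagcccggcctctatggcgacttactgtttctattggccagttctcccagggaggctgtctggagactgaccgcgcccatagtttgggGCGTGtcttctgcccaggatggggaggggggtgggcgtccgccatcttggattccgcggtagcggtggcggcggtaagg
Arnt2: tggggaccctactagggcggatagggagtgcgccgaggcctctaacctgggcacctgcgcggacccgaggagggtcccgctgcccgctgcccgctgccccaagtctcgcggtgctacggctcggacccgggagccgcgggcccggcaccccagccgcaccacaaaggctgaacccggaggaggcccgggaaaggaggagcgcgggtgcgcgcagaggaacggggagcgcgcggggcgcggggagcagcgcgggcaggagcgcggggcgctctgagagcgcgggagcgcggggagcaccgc
The core was searched on both strands. Ahrr held 3 cores, at 107, 82 and 27 bases before the start, counted to the first base of the core, and the last lay within the longer form TNGCGTG. Cyp1a1 held 1 core 54 bases before the start and Arnt 1 core 29 bases before it. Tiparp and Cyp1b1 held 1 core each on the other strand, 170 and 76 bases before the start. Arnt2 held none, which says only that these letters are not in this window. Of 32851 promoter windows of the same length, 32.4% held at least 1 core, 11.1% at least 2 and 3.91% at least 3, and 5.07% held TNGCGTG or its reverse CACGCNA. A match is a description of the letters and was not measured as a binding site.

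**Figure D1:**
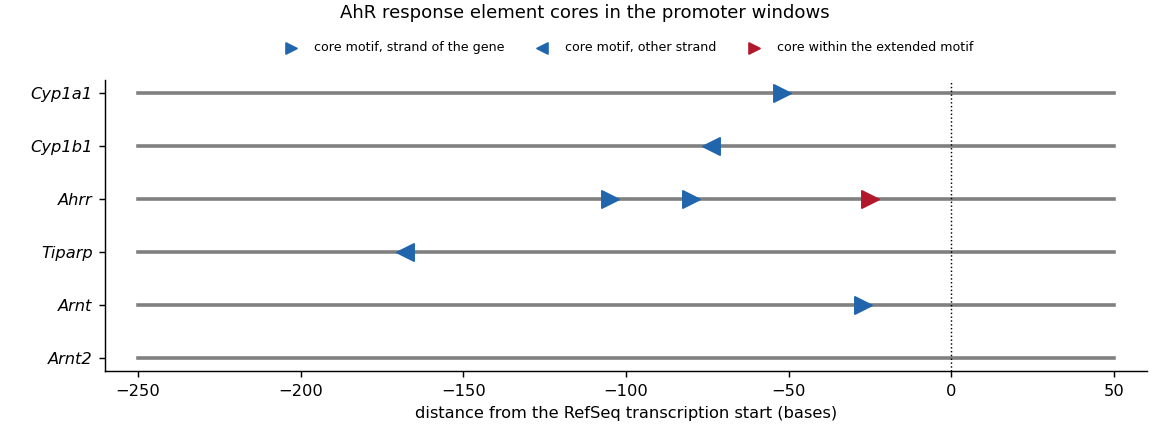
Position of each GCGTG core in 6 promoter windows, with distance from the RefSeq start in bases on the horizontal axis, 1 line per gene, and arrows for the strand. Ahrr has 3 cores, Cyp1a1, Cyp1b1, Tiparp and Arnt have 1 each and Arnt2 has none.

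The libraries held 2663738 to 4902303 counts. The summed level of 14 pan-neuronal marker genes, in CPM (counts scaled to library size), was 4388 to 5087 with agonist and 4261 to 5032 with corn oil in the EGFP+ libraries, against 71.4 to 379 with agonist and 156 to 565 with corn oil in the EGFP- libraries. Mitochondrially encoded transcripts, a sign of RNA from outside the nucleus, made up 1.77% to 5.28% of counts with agonist and 1.95% to 6.11% with corn oil in the EGFP+ libraries, and 10.3% to 42.8% and 11.2% to 26.3% in the EGFP- libraries. Non-neuronal agonist libraries 1 and 2 stood apart, with 42.8% and 33.3% against 21.8% and 10.3% in libraries 3 and 4. These libraries matter for several of the genes, and values with and without them are given below. Levels of single genes are CPM after TMM scaling (a correction of library size for composition) over all 16 libraries, while each log2 fold change comes from the edgeR fit of its own comparison.

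The first question was how these genes responded to the agonist in neuronal nuclei. Ahrr averaged about 7-fold higher with agonist, and every agonist library lay above every control library. Cyp1a1 was detected in all 4 agonist libraries and had no count in any control library. Tiparp, Cyp1b1 and Ahr had higher means, with wide spread in the agonist group, and Arnt and Arnt2 did not. None of the 6 genes tested passed an adjusted p of 0.05 in edgeR's quasi-likelihood test, where 0 of 14182 genes passed (0%), 711 genes had an unadjusted p under 0.05 (5.01%) and DESeq2 called 9 genes (0.0649%).

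Ahrr (ENSMUSG00000021575, GRCm38 chr13:74211118-74292331, minus strand), the AhR repressor, had 54.4, 55.6, 55.8 and 63.3 CPM in neuronal agonist libraries 1 to 4, against 7.59, 7.70, 2.42 and 14.9 CPM in neuronal control libraries 1 to 4. The lowest agonist library lay more than 3-fold above the highest control library. The means were 57.3 ± 4.04 and 8.15 ± 5.13 CPM (SD, n = 4 each), from 913 and 126 counts. The log2 fold change was 2.81 (SE 0.51, 95% interval 1.69 to 3.92), with an unadjusted p of 0.000121, rank 3 of the 14182 genes, and an adjusted p of 0.574 by edgeR. Ahrr passed with DESeq2 (log2 fold change 2.83, adjusted p = 9.79e-05) and with edgeR on all genes that had a count (2.81, adjusted p = 0.000597, where 0.442% of genes were called). Over the alternatives its adjusted p ran from 9.79e-05 to 1 and its log2 fold change from 2.51 to 3.28.

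Cyp1a1 (ENSMUSG00000032315, chr9:57687928-57703824, plus strand), the classical AhR-induced monooxygenase, had 2.52, 6.13, 6.49 and 8.05 CPM in neuronal agonist libraries 1 to 4, from 10, 28, 25 and 29 counts. It had 0 counts in each neuronal control library. The 92 counts against 0 put it at least 27.4-fold higher in agonist nuclei, taking a floor of 3 counts over the control group and scaling by library size. This bound covers counting error only, not the spread between libraries. An exact permutation test over the 4 and 4 libraries gave a two-sided p of 0.0286, the smallest that 70 splits allow. Cyp1a1 did not pass the filter on low counts and so was not in the main test of this comparison. Without that filter edgeR gave it an adjusted p of 0.0218. Other edgeR fits that held it gave 0.407 with all 4 groups in 1 fit, 0.230 without agonist library 1 and 0.999 to 1 without any 1 of the control libraries, with log2 fold changes of 7.40 to 7.77 over these and the fit without a filter.

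Cyp1b1 (ENSMUSG00000024087, chr17:79701537-79715061, minus strand), a related monooxygenase, had 1.26, 14.9, 15.1 and 23.3 CPM in neuronal agonist libraries 1 to 4, against 7.33, 3.33, 6.28 and 1.05 CPM in the control libraries. Agonist library 1 lay within the control range and the other 3 lay above it. The log2 fold change was 1.59 (SE 0.86, adjusted p = 0.903 by edgeR). Tiparp (ENSMUSG00000034640, chr3:65528410-65555518, plus strand) had 36.6, 77.9, 106 and 115 CPM in the agonist libraries, against 39.5, 42.6, 27.8 and 35.6 CPM in the control libraries. Again agonist library 1 stood at the control level and libraries 2 to 4 above it, for a log2 fold change of 1.21 (SE 0.38, unadjusted p = 0.00755, adjusted p = 0.903 by edgeR). Library 1 of this group also had the fewest Cyp1a1 counts of the 4, while its Ahrr level was like that of the others. It had the largest total of the group (4434251 counts) and the fewest genes with a count (17293, against 20313 to 21247 in libraries 2 to 4). Without it the log2 fold change was 1.45 for Tiparp (adjusted p = 0.183 by edgeR), 1.96 for Cyp1b1 (adjusted p = 0.759) and 2.83 for Ahrr (adjusted p = 0.0671). The part of library makeup in these low values was not tested.

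Ahr (ENSMUSG00000019256, chr12:35497974-35535038, minus strand), the receptor itself, had 77.6, 69.6, 146 and 70.5 CPM in neuronal agonist libraries, against 54.7, 64.4, 52.2 and 67.7 CPM in control libraries. The groups did not overlap, but the gap was small and agonist library 3 stood alone at the top. The log2 fold change was 0.61 (SE 0.32, adjusted p = 0.903 by edgeR), and 0.28 without library 3. Ahr, Ahrr and Cyp1a1 were the members whose agonist libraries all lay above the control libraries. Of the 14182 genes tested, which did not include Cyp1a1, 1.47% showed that pattern.

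Arnt (ENSMUSG00000015522, chr3:95434388-95497240, plus strand), the DNA-binding partner of AhR, had 101, 125, 116 and 136 CPM in neuronal agonist libraries, against 128, 152, 110 and 113 CPM in control libraries. The ranges overlapped, and the log2 fold change of -0.07 had a 95% interval from -0.57 to 0.43 (SE 0.23, adjusted p = 0.980 by edgeR). Arnt2 (ENSMUSG00000015709, chr7:84246278-84410176, minus strand), a related partner best known from the nervous system, had 4.03, 6.13, 8.82 and 5.00 CPM in agonist libraries, against 3.93, 4.10, 15.5 and 11.2 CPM in control libraries. Control libraries 3 and 4 were the high ones, and the groups overlapped (log2 fold change -0.54, SE 0.70, adjusted p = 0.956 by edgeR).

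**Figure D2:**
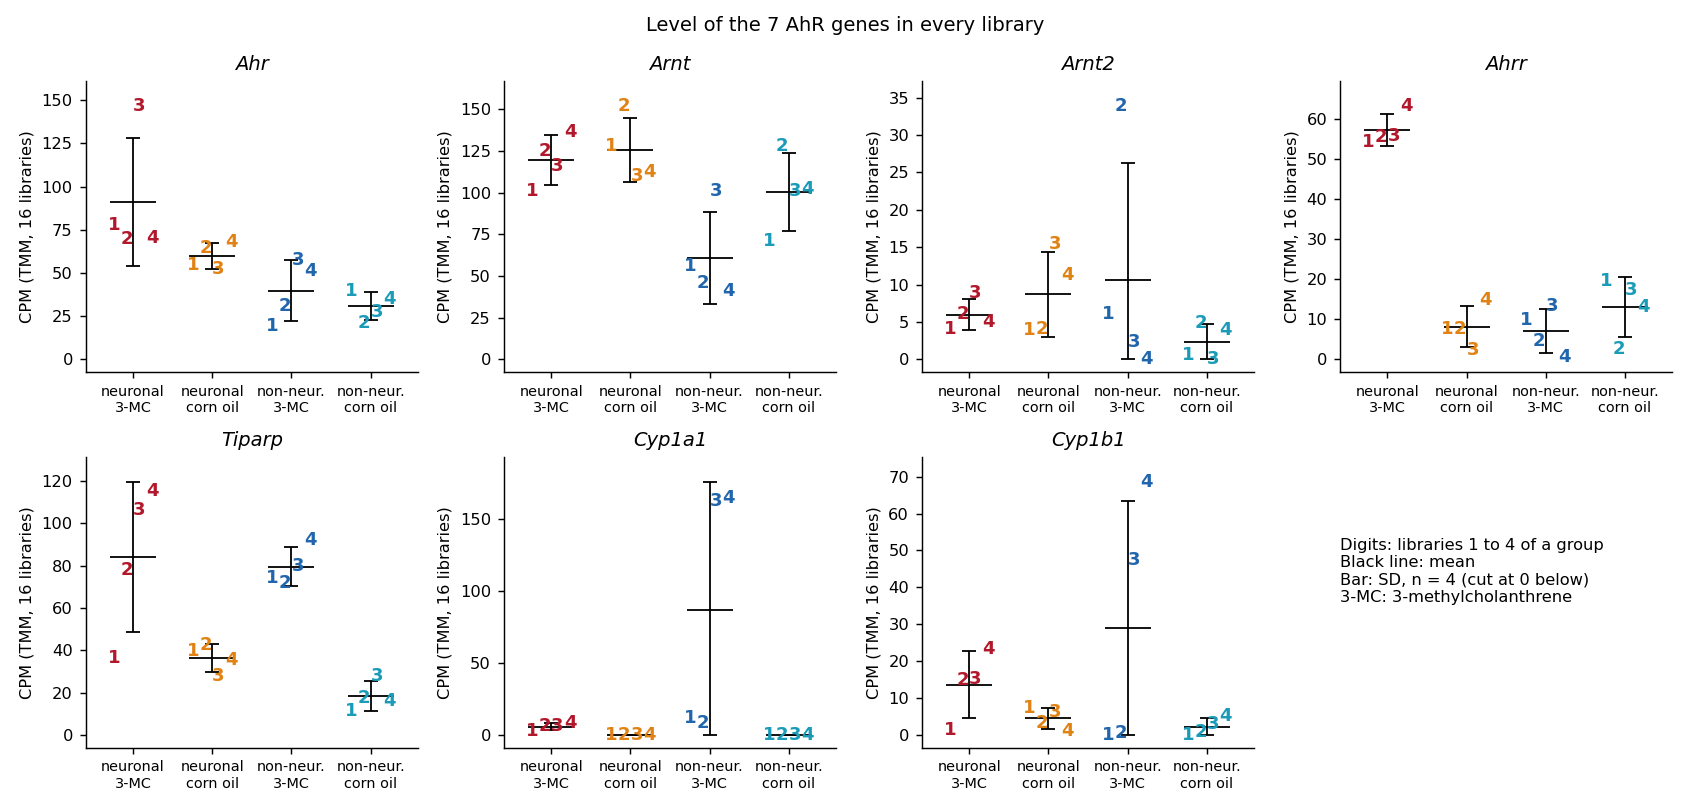
Level of each gene in CPM (TMM over 16 libraries, linear axes that differ between genes), with digits for libraries 1 to 4 of each group and black lines for mean and SD (n = 4). Ahrr sits at 54.4 to 63.3 CPM in neuronal agonist libraries and at or under 19.5 CPM in the other 12, while Cyp1a1 is highest in non-neuronal agonist libraries 3 and 4.

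The second question was how these genes responded in non-neuronal nuclei. Cyp1a1 was higher in every agonist library and passed the test, as 1 of the 2 genes called among 14846 (0.0135%; the other was Serpina3n). Tiparp was higher in every agonist library as well and did not pass. Cyp1b1 was high in 2 of the 4 agonist libraries, and the Ahrr groups overlapped.

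Cyp1a1 had 11.7, 8.57, 163 and 165 CPM in non-neuronal agonist libraries 1 to 4, from 31, 19, 623 and 712 counts. The control libraries had 0, 0, 0.299 and 0 CPM, from a single count in library 3. All agonist libraries lay above all control libraries, and libraries 3 and 4 lay more than 10-fold above libraries 1 and 2. The log2 fold change was 9.62 (SE 1.42, adjusted p = 0.0396 by edgeR), and it rests on 1 control count. From the summed counts, 1385 against 1, the ratio was 1122 with a counting interval from 201.1 to 4.436e+04, which covers counting error only.

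The call of Cyp1a1 was sensitive to which libraries were in the fit. Its adjusted p was 0.263 without agonist library 3, 0.304 without agonist library 4, and 0.443, 0.325, 0.493 and 0.354 without control libraries 1 to 4, with log2 fold changes from 9.07 to 11.17. It was 0.0981 with library size only and 0.0518 with upper-quartile scaling. Without agonist libraries 1 and 2, those over 30% mitochondrial, the log2 fold change was 10.54 (adjusted p = 0.000154 by edgeR). DESeq2 gave an adjusted p of 6.03e-09.

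In non-neuronal nuclei Tiparp had 74.1, 71.8, 80.0 and 92.1 CPM with agonist, against 11.5, 17.6, 28.1 and 16.1 CPM with corn oil. After TMM scaling the agonist libraries were close to each other, and the lowest was more than 2-fold above the highest control library. The means were 79.5 ± 9.12 and 18.3 ± 7.01 CPM (SD, n = 4 each), and the log2 fold change was 2.16 (SE 0.58, 95% interval 0.93 to 3.39, unadjusted p = 0.00186, adjusted p = 0.739 by edgeR). Tiparp passed with DESeq2 (adjusted p = 0.0263), which called 0.25% of genes. Without agonist libraries 1 and 2 the log2 fold change was 2.23. The closeness of the agonist libraries depends on the scaling. By library size alone Tiparp had 40.0, 44.7, 64.7 and 94.6 CPM in agonist libraries 1 to 4, against 12.4 to 21.3 CPM in control libraries. Tiparp and Cyp1a1 were the members whose agonist libraries all lay above the control libraries, as did 1.25% of the genes tested.

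Cyp1b1 had 0, 0.451, 47.3 and 68.5 CPM in non-neuronal agonist libraries 1 to 4, from 0, 1, 181 and 296 counts, against 0, 0.751, 2.99 and 5.18 CPM in control libraries. Libraries 3 and 4 were high and libraries 1 and 2 lay within the control range. Cyp1a1 too was highest in libraries 3 and 4, but its libraries 1 and 2 lay above the control libraries. Cyp1b1 did not pass the filter, and the exact permutation test gave a two-sided p of 0.400. Without agonist libraries 1 and 2 edgeR gave it a log2 fold change of 4.66 (adjusted p = 0.400). It was 3.72 without a filter (adjusted p = 0.307) and 3.67 with all 4 groups in 1 fit (adjusted p = 0.335). No edgeR fit that held Cyp1b1 called it. Ahrr had 9.82, 4.51, 13.3 and 0.694 CPM with agonist, against 19.5, 2.63, 17.3 and 13.2 CPM with corn oil. The ranges overlapped, the lowest value was that of agonist library 4, where Cyp1a1 was highest, and the log2 fold change was -0.84 (SE 1.15, 95% interval -3.28 to 1.60, adjusted p = 0.983 by edgeR).

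Some other measures moved with the split of the non-neuronal agonist libraries, with marker sums in CPM of library size, without TMM. On that scale Cyp1a1 stood at 6.32, 5.34, 132 and 169 CPM, Cyp1b1 at 0, 0.281, 38.3 and 70.4 CPM and Tiparp at 40.0, 44.7, 64.7 and 94.6 CPM. In libraries 1 to 4 the mitochondrial share was 42.8%, 33.3%, 21.8% and 10.3%. The summed CPM of 9 blood endothelial markers was 102, 195, 413 and 379, that of 7 fibroblast and PDGFRA-positive cell markers 208, 220, 928 and 981, and that of 8 smooth muscle markers 1747, 2951, 6076 and 4633. The 9 macrophage markers, at 60.8, 113, 260 and 192 CPM, and the 14 pan-neuronal markers, at 71.4, 162, 379 and 234 CPM, were also lower in libraries 1 and 2. Other lists did not follow the split, with 261, 1075, 891 and 1474 CPM for 6 lymphatic endothelial markers, 74.0, 395, 40.4 and 107 CPM for 6 lymphocyte markers, 125, 342, 283 and 380 CPM for 5 markers of interstitial cells of Cajal, 48.8, 49.2, 35.9 and 54.0 CPM for 6 enteric glia markers and 3696, 2415, 1191 and 4080 CPM for 11 epithelial markers. Mitochondrial counts enter the library size, which lowers the CPM of all other genes. The TMM factors of libraries 1 to 4 were 0.556, 0.638, 0.817 and 1.04. On the TMM scale library 2 would thus lie above library 4 for the smooth muscle and pan-neuronal markers. In such bulk samples fewer cells of a type and less RNA per cell cannot be told apart. The part of cell makeup in the Cyp1a1, Cyp1b1 and Tiparp levels was not tested.

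**Figure D3:**
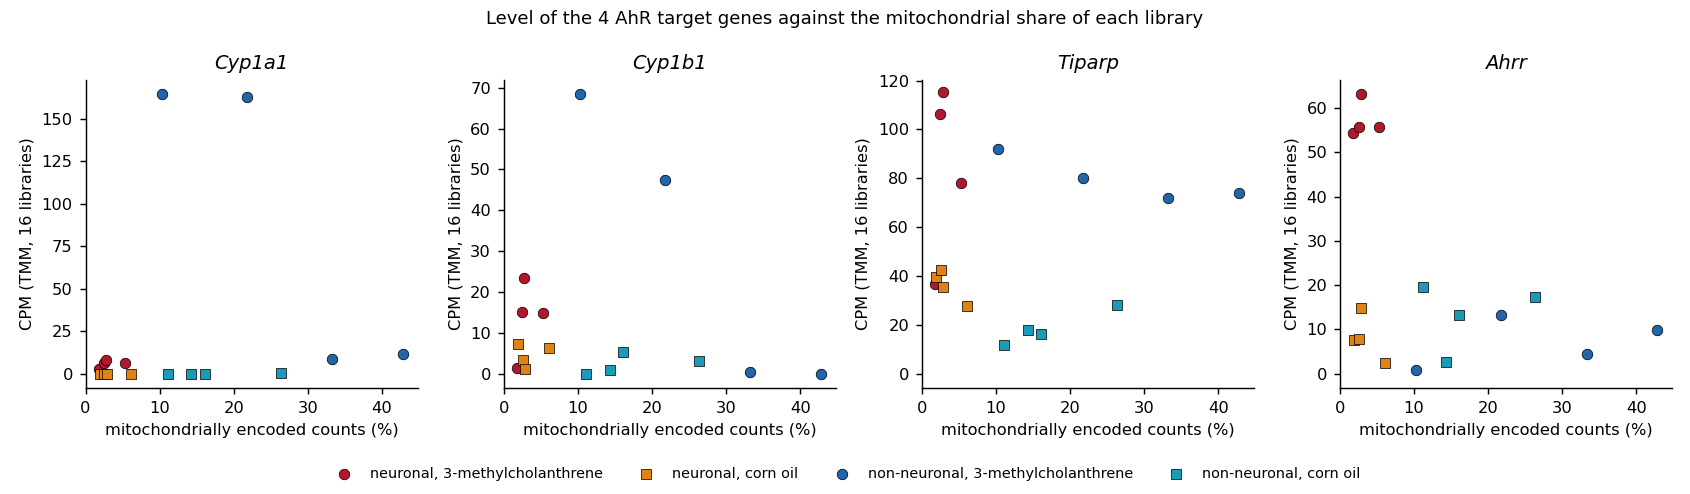
Level of the 4 AhR target genes in CPM (TMM over 16 libraries, vertical axes) against the mitochondrially encoded share of counts in percent (horizontal axes), 1 point per library. Cyp1a1 and Cyp1b1 are low in the non-neuronal agonist libraries at 42.8% and 33.3% and high in those at 21.8% and 10.3%. Tiparp is at 71.8 to 92.1 CPM in all 4 on this scale, and at 40.0 to 94.6 CPM by library size alone.

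The receptor and its partners showed no called change in non-neuronal nuclei. Ahr had 19.3, 30.7, 57.3 and 51.4 CPM in agonist libraries, against 39.6, 21.02, 27.5 and 35.0 CPM in control libraries (log2 fold change 0.41, SE 0.65, adjusted p = 0.989 by edgeR). Its agonist libraries 3 and 4 were above the control range and library 1 below it. Arnt had 55.9, 45.6, 101 and 40.7 CPM in agonist libraries, against 71.0, 128, 101 and 102 CPM in control libraries. Agonist libraries 1, 2 and 4 lay below every control library, and the log2 fold change was -0.69 (SE 0.48, adjusted p = 0.967 by edgeR). Arnt2 had 6.05, 33.8, 2.35 and 0 CPM, against 0.592, 4.88, 0 and 3.88 CPM. A single agonist library set its log2 fold change of 2.20 (SE 1.64, adjusted p = 0.971 by edgeR), which was 0.26 without agonist library 2.

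Set side by side, the log2 fold change of Ahrr with agonist was 2.81 in neuronal and -0.84 in non-neuronal nuclei, and the difference of these responses was tested in a fit over all 16 libraries. The log2 difference of Ahrr (neuronal minus non-neuronal response) was 3.70 (SE 1.15, 95% interval 1.32 to 6.08, unadjusted p = 0.00379), with an adjusted p of 0.432 by edgeR. It did not pass, and its adjusted p ran from 0.0707 with DESeq2 to 1 over the alternatives. Of 18566 genes tested, 0 were called by edgeR (0%), 1484 had an unadjusted p under 0.05 (7.99%), and DESeq2 called 103 (0.613%). The difference was -0.91 for Tiparp (SE 0.65, adjusted p = 0.774), -2.08 for Cyp1b1 (SE 1.87, adjusted p = 0.846), 0.24 for Ahr (SE 0.65, adjusted p = 0.973), 0.65 for Arnt (SE 0.51, adjusted p = 0.811) and -2.69 for Arnt2 (SE 1.86, adjusted p = 0.770). For Cyp1a1 the fitted difference (-2.23, SE 6.25) has no use, since both control groups together held 1 count. In this test a p above the threshold does not show that the responses were alike.

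**Figure D4:**
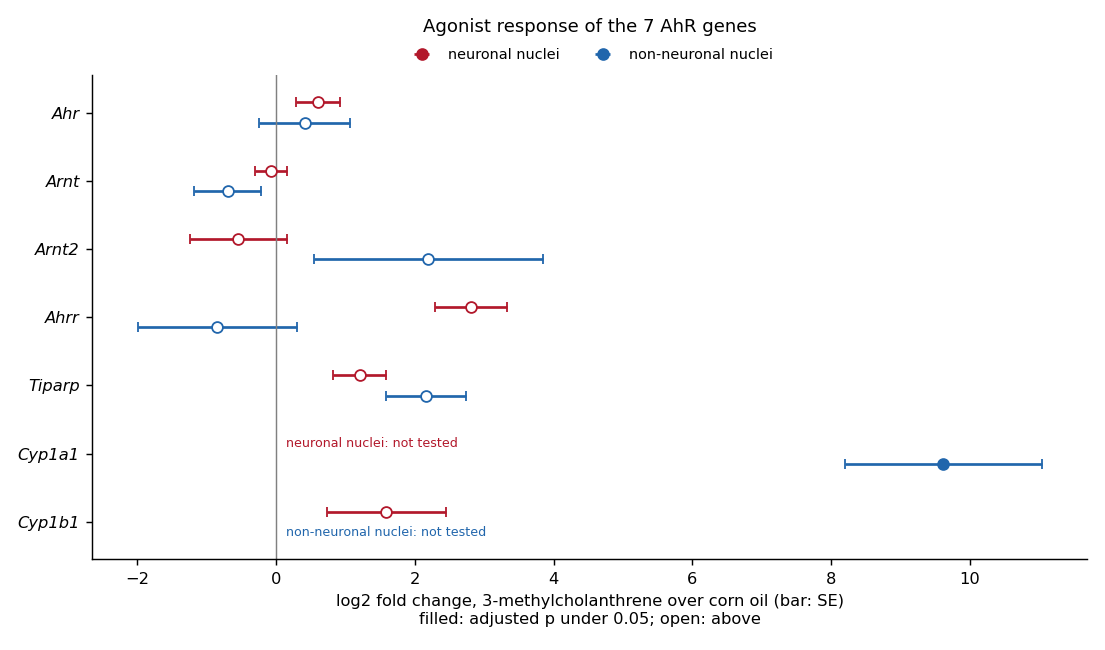
Log2 fold change of each gene with agonist over corn oil (horizontal axis, bar = SE) in neuronal nuclei (red, upper) and non-neuronal nuclei (blue, lower), filled where the adjusted p was under 0.05. Only Cyp1a1 in non-neuronal nuclei is filled, and Ahrr has 2.81 in neuronal and -0.84 in non-neuronal nuclei.

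The next comparison set neuronal against non-neuronal nuclei of agonist mice, and asks in which population the pathway genes were higher after treatment. Ahrr was higher and Cyp1a1 lower in neuronal nuclei, and both passed. In this comparison 6.67% of 14065 genes were called higher and 6.97% lower (938 and 980 genes, or 1332 and 649 with library size only). All 7 members were tested, and 1 was called in each direction, so the count lies close to that background.

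Ahrr averaged 57.3 ± 4.04 CPM in neuronal agonist and 7.09 ± 5.60 CPM in non-neuronal agonist nuclei (SD, n = 4 each). The groups did not overlap, as for 11.7% of the genes tested that were higher, and the log2 fold change was 3.00 (SE 0.90, adjusted p = 0.0371 by edgeR). The call was lost when neuronal agonist library 2, 3 or 4 was left out (adjusted p = 0.0824, 0.0790 and 0.0813), when non-neuronal agonist library 1, 2 or 4 was (0.0506, 0.0714 and 0.0532) and without the libraries over 30% mitochondrial (0.0967), with log2 fold changes of 2.62 to 3.17 in these fits. Cyp1a1 averaged 5.80 ± 2.34 CPM in neuronal agonist and 87.0 ± 88.8 CPM in non-neuronal agonist nuclei. The groups did not overlap, with 8.05 CPM the highest neuronal and 8.57 CPM the lowest non-neuronal value, and 9.96% of genes were likewise lower without overlap. The log2 fold change was -3.89 (SE 1.01, adjusted p = 0.0182 by edgeR), and the adjusted p was 0.0506 with neuronal agonist library 2 left out, 0.0535 with non-neuronal agonist library 3 left out and 0.0651 with library 4 left out.

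By CPM of library size, Cyp1a1 in neuronal agonist nuclei stood at 8.75% of its level in non-neuronal agonist nuclei. Summed markers of other cells were also present in neuronal agonist nuclei. Smooth muscle markers stood at 9.52% of their non-neuronal level, macrophage markers at 6.54%, blood endothelial markers at 5.26%, fibroblast and PDGFRA-positive cell markers at 3.42%, lymphocyte markers at 1.83%, lymphatic endothelial markers at 1.61% and epithelial markers at 0.994%. Enteric glia markers stood at 29.5%, and the 5 markers of interstitial cells of Cajal at 162%. That last sum joins markers that went opposite ways. Among these 5, 3 were called lower in neuronal nuclei by edgeR, where 6.97% of all genes were. Only 2 had a log2 fold change above 0, and the median was -4.21. Most markers on each list had counts in neuronal agonist nuclei. Those without a count were 1 of 9 blood endothelial markers (Tie1), 2 of 9 macrophage markers (Cx3cr1 and C1qa), 2 of 6 lymphocyte markers (Cd3d and Cd79a, of which Cd79a had none in non-neuronal agonist nuclei either) and 1 of 11 epithelial markers (Krt18). The part of RNA from other cells in the neuronal Cyp1a1 counts was not tested. Ahrr stood at 1329% of its non-neuronal level, Tiparp at 163%, Ahr at 324%, Arnt at 301%, Arnt2 at 106% and Cyp1b1 at 60.5%. All these shares are by library size, to which mitochondrial counts add more in the non-neuronal libraries. After TMM scaling the neuronal and non-neuronal agonist means were 84.0 and 79.5 CPM for Tiparp and 6.00 and 10.6 CPM for Arnt2. They were 57.3 and 7.09 CPM for Ahrr, 91.0 and 39.7 for Ahr, 120 and 60.9 for Arnt and 13.6 and 29.1 for Cyp1b1.

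The other 5 members were not called between the populations in agonist mice. Ahr averaged 91.0 ± 37.1 CPM in the EGFP+ and 39.7 ± 17.7 CPM in the EGFP- nuclei (log2 fold change 1.18, SE 0.59, adjusted p = 0.228 by edgeR), and its groups did not overlap. Arnt averaged 120 ± 14.8 and 60.9 ± 27.6 CPM in neuronal and non-neuronal nuclei, without overlap by the margin between 101.3 and 101.2 CPM (0.97, SE 0.50, adjusted p = 0.241 by edgeR). Tiparp was at 84.0 ± 35.4 CPM in EGFP+ and 79.5 ± 9.12 CPM in EGFP- nuclei, with a log2 fold change of 0.07 and a 95% interval from -1.06 to 1.20. Cyp1b1 had -1.07 (SE 1.40) and Arnt2 -0.86 (SE 1.37, turning to 0.046 with library size only), both with overlapping groups.

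In control mice Ahr was the member called between the populations. It averaged 59.8 ± 7.47 CPM in neuronal control and 30.8 ± 8.20 CPM in non-neuronal control nuclei (SD, n = 4 each), with 52.2 CPM the lowest neuronal and 39.6 CPM the highest non-neuronal value. The log2 fold change was 1.04 (SE 0.34, 95% interval 0.30 to 1.78, adjusted p = 0.0395 by edgeR). Of the 15285 genes tested, 11.8% were called higher and 13.5% lower (1811 and 2065 genes, or 2084 and 1679 with library size only), and 15.1% were higher without overlap, so 1 call among the 6 members tested is near the background. The call of Ahr was lost without any 1 of neuronal control libraries 1 to 4 (adjusted p = 0.0699, 0.0833, 0.0704 and 0.102) and without non-neuronal control library 2 or 3 (0.0769 and 0.0558), with log2 fold changes from 0.88 upward, and also in the fit of all 4 groups (0.190).

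Tiparp averaged 36.4 ± 6.40 CPM in neuronal control and 18.3 ± 7.01 CPM in non-neuronal control nuclei, and the highest non-neuronal library, at 28.1 CPM, just passed the lowest neuronal one at 27.8 CPM. Its log2 fold change was 1.08 (SE 0.43, adjusted p = 0.0848 by edgeR), with an adjusted p of 0.0433 with DESeq2 (14% of genes called higher), 0.0278 with library size only (13.6% called higher) and 0.0374 without non-neuronal control library 3. Arnt was at 126 ± 19.2 CPM in EGFP+ and 101 ± 23.3 CPM in EGFP- control nuclei (0.41, SE 0.26, adjusted p = 0.302 by edgeR). Arnt2 was at 8.69 ± 5.66 and 2.34 ± 2.41 CPM in neuronal and non-neuronal control nuclei (1.96, SE 1.07, adjusted p = 0.214 by edgeR). Ahrr, at 8.15 ± 5.13 CPM in EGFP+ and 13.2 ± 7.50 CPM in EGFP- control nuclei, had a log2 fold change of -0.59 (SE 0.75, adjusted p = 0.623 by edgeR). Cyp1b1 was low in both (4.50 ± 2.86 and 2.23 ± 2.34 CPM), and Cyp1a1 had 0 and 1 counts over the groups.

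**Figure D5:**
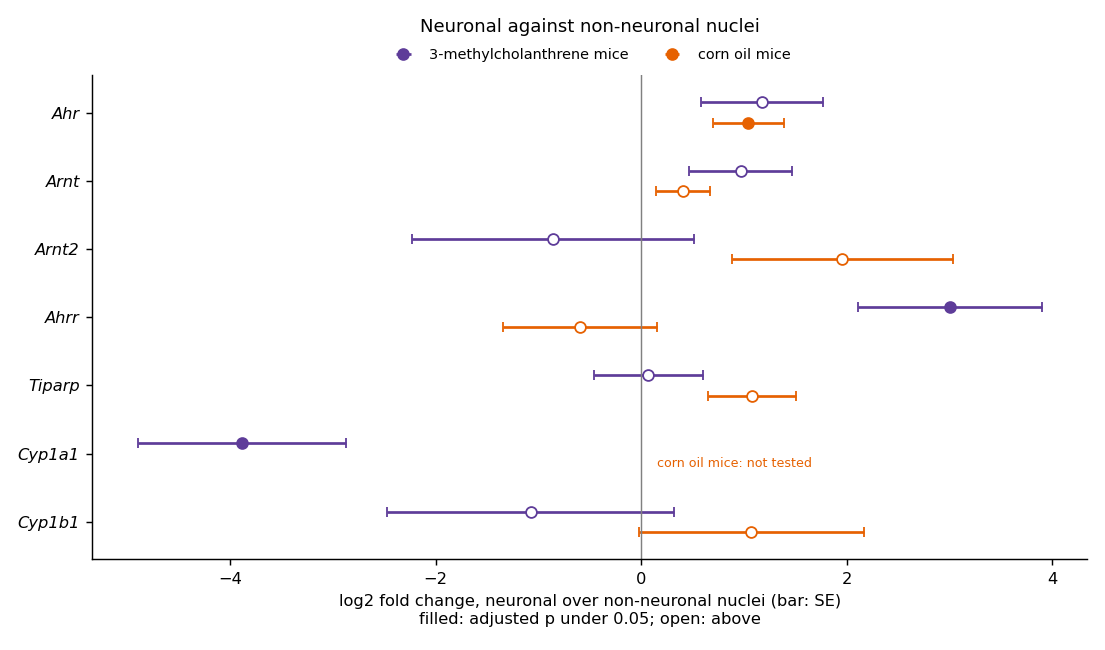
Log2 fold change of each gene in neuronal over non-neuronal nuclei (horizontal axis, bar = SE) in agonist mice (violet, upper) and control mice (orange, lower), filled where the adjusted p was under 0.05. Ahrr (3.00) and Cyp1a1 (-3.89) are filled in agonist mice and Ahr (1.04) in control mice.

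The order of the levels within each gene gave the following picture. For Ahrr, neuronal agonist nuclei were highest, and the other 3 groups (non-neuronal control, neuronal control and non-neuronal agonist, in falling order) overlapped each other. For Cyp1a1 the order was non-neuronal agonist, neuronal agonist, non-neuronal control and neuronal control, of which the last 2 were at or near 0. For Tiparp both agonist groups stood at the top and overlapped, followed by neuronal control nuclei, which overlapped neuronal agonist library 1, and then non-neuronal control nuclei, which overlapped neuronal control narrowly. For Ahr both neuronal groups were above both non-neuronal groups in the means, though non-neuronal agonist library 3 lay in the range of neuronal control. For Arnt only the non-neuronal agonist group stood lower in its mean, and its library 3 lay within the range of non-neuronal control; the other neighbours overlapped. For Arnt2 and Cyp1b1 every pair of neighbouring groups overlapped.

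Across genes, levels can be compared only per length, here as CPM per kilobase of annotated exon. In neuronal agonist nuclei Tiparp averaged 19.3, Arnt 14.9, Ahr 14.8, Ahrr 6.07, Cyp1b1 2.33, Cyp1a1 2.08 and Arnt2 0.780 CPM per kilobase. In neuronal control nuclei Arnt led with 15.7, then Ahr with 9.70 and Tiparp with 8.34, and Arnt2 had 1.13, Ahrr 0.863, Cyp1b1 0.770 and Cyp1a1 0 CPM per kilobase. In non-neuronal agonist nuclei Cyp1a1 averaged 31.2 ± 31.8 CPM per kilobase (SD, n = 4), followed by Tiparp with 18.2, Arnt with 7.60, Ahr with 6.43, Cyp1b1 with 4.98, Arnt2 with 1.37 and Ahrr with 0.751. Arnt was thus above Arnt2 in each of these groups, and also in non-neuronal control nuclei (12.6 against 0.304), where Ahr had 4.99, Tiparp 4.21, Ahrr 1.40, Cyp1b1 0.382 and Cyp1a1 0.0268 CPM per kilobase.

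Genes around the pathway were described from lists. The AhR chaperone genes Hsp90aa1 and Hsp90ab1 (HSP90) and Ptges3 (p23) were all 3 tested, and none was called in the neuronal or the non-neuronal response. Hsp90ab1 was at 146 ± 48.5 CPM in neuronal agonist and 151 ± 30.6 CPM in neuronal control nuclei (log2 fold change -0.05, SE 0.28, adjusted p = 0.985 by edgeR), and Hsp90aa1 at 132 ± 29.6 and 131 ± 21.3 CPM. In non-neuronal nuclei the log2 fold change was 0.32 for Hsp90ab1 (SE 0.39, adjusted p = 0.983 by edgeR) and 0.080 for Hsp90aa1 (SE 0.47, adjusted p = 0.992). Over all genes tested the median log2 fold change was 0.08 in the neuronal and 0.13 in the non-neuronal response. Between neuronal and non-neuronal nuclei none of the 3 was called, in agonist or in control mice.

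Of 9 other known AhR targets, 2 were tested in the neuronal response and 5 in the non-neuronal response, and none was called (medians 0.65 and 0.84). Log2 fold changes were above 0 for 1 of the 2, Nfe2l2, and for 4 of the 5. Nfe2l2, which encodes the antioxidant regulator NRF2, was at 59.6 ± 22.5 CPM in neuronal agonist and 19.9 ± 4.04 CPM in neuronal control nuclei (1.58, SE 0.39, unadjusted p = 0.00149, adjusted p = 0.903 by edgeR). In non-neuronal nuclei it was at 221 ± 151 CPM with agonist and 127 ± 51.7 CPM with corn oil (0.84, SE 0.48, adjusted p = 0.954 by edgeR). Agonist library 1, the one at 42.8% mitochondrial, stood alone at 439 CPM. Libraries 2 to 4 had 102, 138 and 206 CPM, against 81.8 to 192 CPM in control libraries. Ugt1a6a, a glucuronosyltransferase, had 5 and 20 counts in all neuronal agonist and neuronal control libraries, against 75.6 ± 31.0 CPM in non-neuronal agonist and 69.5 ± 14.3 CPM in non-neuronal control nuclei. Of the 3 list genes tested between populations, Ugt1a6a and Nfe2l2 were lower in neuronal nuclei in agonist mice (-7.71, adjusted p = 0.000749, and -1.94, adjusted p = 0.0230) and in control mice (-5.62, adjusted p = 7.68e-05, and -2.57, adjusted p = 0.000209), all by edgeR. Of all genes, 6.97% were called lower in agonist mice and 13.5% in control mice. Ugt1a6a shares exons with the other genes of the Ugt1a cluster, so its counts may be divided.

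All 10 coregulators of AhR on the list were tested in each comparison, and none was called in the responses (median 0.16 in neuronal and 0.19 in non-neuronal nuclei). Their most abundant genes were the corepressor Ncor1, at 344 ± 96.6 CPM in neuronal agonist and 376 ± 53.3 CPM in neuronal control nuclei, and the acetyltransferase Crebbp, at 316 ± 200.5 and 229 ± 45.7 CPM. Neuronal agonist library 1 had 610 CPM of Crebbp, against 276, 208 and 172 CPM in libraries 2 to 4. Nrip1, a nuclear receptor corepressor, was the 1 gene called between the populations, lower in neuronal nuclei of agonist mice (87.4 ± 20.6 against 245 ± 103 CPM, log2 fold change -1.50, adjusted p = 0.0404 by edgeR) and of control mice (92.4 ± 32.1 against 240.2 ± 91.5 CPM, -1.29, adjusted p = 0.00799). With 6.97% and 13.5% of all genes called lower in these comparisons, 1 of 10 is near the background.

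Of 12 other genes of the bHLH-PAS family, to which AhR and ARNT belong, 6 were tested in the neuronal and 8 in the non-neuronal response, and none was called (medians -0.25 and 0.51). The hypoxia factors Epas1 and Hif3a, which also pair with ARNT, were lower in neuronal nuclei in agonist mice (-4.38, adjusted p = 0.0427, and -5.37, adjusted p = 0.0254 by edgeR) and in control mice (-4.14, adjusted p = 0.000773, and -5.72, adjusted p = 0.000197). The clock-related Npas2 was lower in control mice (-2.22, adjusted p = 0.0183 by edgeR). In all, 2 of 8 genes tested were called lower in agonist mice, where 6.97% of all genes were, and 3 of 8 in control mice, where 13.5% were. Hif1a, at 42.9 ± 12.6 CPM in neuronal agonist and 128 ± 57.3 CPM in non-neuronal agonist nuclei, was not called (-1.59, adjusted p = 0.0681 by edgeR).

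The genes whose levels ran most like each member over the 16 libraries were found by Pearson's r of log2 CPM among 18566 genes. These libraries share the sort, the treatment and their depth, so r is a description. Natd1 (r = 0.79), Nedd9 (0.78) and Ctdp1 (0.77) came closest to Ahrr. Mynn (0.84), Zmpste24 (0.83) and Clk1 (0.81) came closest to Cyp1a1, and Kdm6a (0.81), Spata5 (0.80) and Cyp1a1 (0.77) to Tiparp. Hfm1, Gm44562 and Ttc26 (each 0.90) came closest to Ahr, Mthfd2l (0.94), Tspyl5 (0.91) and Rgs11 (0.91) to Arnt, and Csmd1 (0.89), Gm37437 (0.87) and Klhl29 (0.84) to Arnt2. Tiparp and Cyp1a1 were the closest pair of members at 0.77. Ahrr had -0.04 with Cyp1a1, 0.02 with Cyp1b1 and 0.19 with Tiparp.

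Other annotated genes overlap 4 of the 7 loci, and no source used here gives the strand setting of the counting. The pseudogene Gm42672 lies inside Arnt and held 1 to 124 counts per library. The antisense gene Gm30873 in Arnt2 held 0 to 29 counts, so the low Arnt2 values are uncertain. A small nuclear RNA gene within Arnt2, Gm25790, held 0 counts. The pseudogene 4931440P22Rik shares 970 bases with Tiparp and held 88 counts in non-neuronal control library 1 and 0 to 31 in the other 15 libraries, and the long noncoding RNA Gm48236 at Ahr held 2 counts in all. Ahrr, Cyp1a1 and Cyp1b1 overlap no other annotated gene.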

How the data were processed

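Nuclear RNA of sorted nuclei was sequenced as 75 bp single-end reads from cDNA sheared to 200 bp, per the labels' protocols. The deposited table gives an expected count per gene and library that the authors made with RSEM; the submitters' processing notes name RSEM 1.3.0, STAR 2.5.2, DESeq2 1.10.1 and the build GRCm38. No source used here gives the annotation release or the strand setting. Per the file headers, the project was named for a wild-type against AhR knockout comparison; the labels do not explain this, and groups follow the labels. Symbols, positions and exon lengths came from GENCODE M21 by Ensembl identifier.

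Expected counts were rounded and fitted in edgeR 4.0.16 (R 4.3.3) with TMM scaling, filterByExpr by group (minimum count 10, minimum total 15) and robust quasi-likelihood F-tests, on 8 libraries per comparison and 16 for the difference. Calls need an adjusted p (Benjamini-Hochberg, over all genes tested) below 0.05. SE is the log2 fold change divided by the square root of F. Genes of a fit that failed the filter got exact permutation tests of CPM, 3 in all and unadjusted. Marker sums are CPM of library size without TMM. The fits were also run on simulated data, and the outcome is not reported here. Alternatives were DESeq2 1.42.0, other scalings, no filter, all groups in 1 fit, without mitochondrial genes, without libraries over 30% mitochondrial, each library left out, and a replicate block.

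The members and lists were chosen with earlier results of these data known. The 7 members are always named; from each pathway list the called genes are named, up to 4, otherwise at most 2 with the highest mean level, and for each member the 3 most similar genes. Some results these rules cover are not reported here, among them the genes most similar to Cyp1b1.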

Additional observations from a re-analysis of the deposited data

Results flagged for a closer look

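Of 28 combinations of a gene and a group, 3 held a library whose gap to its nearest neighbour was large against the range of its group of 4 by Dixon's criterion, which chance meets in about 1 of 20 groups. Ahr stood at 146 CPM in neuronal agonist library 3, against 69.6 to 77.6 CPM in the other 3. Ahrr stood at 63.3 CPM in neuronal agonist library 4, against 54.4 to 55.8 CPM in the others, all above the neuronal control range. Cyp1a1 stood at 0.299 CPM in non-neuronal control library 3, from 1 count, where the others had 0.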

How the results depend on the processing

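The number of members called was 0 in the neuronal response, 1 with DESeq2 (Ahrr) and 2 without a filter on low counts (Ahrr and Cyp1a1). In the non-neuronal response it was 1, then 2 with DESeq2, 0 with library size only, 0 with upper-quartile scaling and 0 to 1 with each library left out. No fit called a member in the difference between populations. Between populations in agonist mice it was 2, then 1 without the libraries over 30% mitochondrial and 0 to 2 with each library left out. In control mice it was 1, then 2 with DESeq2, 2 with library size only, 0 without a filter, 0 with all 4 groups in 1 fit and 0 to 1 with each library left out. Where an arm lost a library, the pooled spread of the fit was used. No value was had without libraries over 30% mitochondrial where a comparison held none of them.

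Of 556 alternative values of single genes, 510 kept direction and side of the threshold, 27 lost it, 6 gained it and 13 turned round. Without the libraries over 30% mitochondrial, Arnt2 had -0.99 in the non-neuronal response, 0.40 in the difference and 2.40 between populations in agonist mice, and Ahr had -0.24 in the difference. With library size only Arnt2 had 0.046 between populations in agonist mice. With each library left out, Arnt ran from -0.14 to 0.030 in the neuronal response, Ahr from -0.092 to 0.39 in the difference, and between populations in agonist mice Arnt2 ran from -1.27 to 1.06 and Tiparp from -0.10 to 0.35. None of these values was called, and the cause was not tested.

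Same-numbered agonist and control libraries deviated together at r from -0.103 to 0.179. They correlated best with their own number in 1 of 4 neuronal and 2 of 4 non-neuronal cases. Same-numbered EGFP+ and EGFP- libraries of 1 treatment could share a mouse, which no source used here states. Their r ran from 0.005 to 0.074 with agonist (2 of 4 best) and from -0.010 to 0.055 with corn oil (3 of 4 best). These values do not settle whether numbers are pairs, and the main fits did not take them as pairs. With a replicate block 0 members were called between populations in control mice, and in agonist mice Arnt2 had 0.74, Tiparp -0.055 and Cyp1b1 0.66, with no other call of a member changed.

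Over all genes, the neuronal response called 0 genes, 9 with DESeq2 and 152 without a filter. The non-neuronal response called 2, then 35, 88 and 11 with DESeq2, without a filter and with all groups in 1 fit, 1 without the libraries over 30% mitochondrial, and 0 with the other scalings. The difference called 0, then 103 with DESeq2, 110 without a filter, 7 without the libraries over 30% mitochondrial and 9 without non-neuronal agonist library 3. Neuronal against non-neuronal nuclei of agonist mice gave 1918, then 2953, 3324 and 4590 with DESeq2, without a filter and with all groups in 1 fit. Between TMM and library size the median log2 fold change of all genes was 0.13 and -0.28 in the non-neuronal response, 0.04 and 0.28 in the difference, -0.15 and 0.43 between populations in agonist mice, and -0.11 and 0.11 in control mice. Depth limits Cyp1a1, Cyp1b1 and Arnt2 most, with fewer than 10 counts in several libraries.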
